A study of Arabidopsis thaliana with 18 samples.

Results

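Wild-type Arabidopsis plants that had grown in short days were moved for 24 h into continuous far-red-enriched light, and the RNA of their shoots was compared with that of plants kept in short days. The comparison rests on 6 of the 18 RNA-seq libraries of the series, chosen by genotype and treatment alone: 3 wild-type libraries after 24 h of far-red-enriched photoperiod (FRP) and 3 wild-type libraries without FRP. The plants were of the Columbia (Col-0) wild type and 42 days old after growth in 8 h of light and 16 h of dark at 120 µmol per m2 and s. FRP began at the end of a short day, under lamps of lower red to far-red ratio and lower intensity, while the untreated plants stayed in short days over the same 24 h. Longer light, its colour and its intensity therefore cannot be told apart here. Inflorescence shoots were harvested after all leaves and roots had been removed, and the 3 replicates of a group were separate biological samples.

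In Arabidopsis, flowering is promoted by long days. The clock restricts the protein CONSTANS (CO) to the end of a long day, CO activates FLOWERING LOCUS T (FT) in leaf veins, and the FT protein travels to the shoot apex, where with the bZIP factor FD it activates genes that turn new primordia into flowers. TERMINAL FLOWER 1 (TFL1), a close relative of FT, opposes it. The clock itself is a loop in which the morning factors CCA1 and LHY repress genes of the evening, which in turn repress the morning genes, while phytochromes read the ratio of red to far-red light. The question addressed by the design is which genes of the shoot respond to a photoinductive treatment before flowers are visible.

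Between 20470477 and 29385403 reads were counted on genes per library. The untreated library of replicate 1 stood apart from its group. On the leading principal component of log CPM, which held 85.7% of the variance, untreated replicates 2 and 3 lay at -53.9 and -55.2, the 3 FRP libraries lay between 29.0 and 45.1, and untreated replicate 1 lay between the groups at -3.07. The next component (10.9%) separated replicate 1 (33.0) from the other 5 libraries (-7.64 to -5.96). Counts over gene lists are therefore given with all 6 libraries and without this one. Shoot meristem markers summed to 438, 519.9 and 491 CPM in untreated replicates 1, 2 and 3 and to 599, 634 and 610.5 CPM after FRP, although 6 of the 9 tested had a negative log2 fold change (median -0.31), and 2 were higher and 2 lower without replicate 1. STM, the homeobox gene that maintains the meristem, was present in every library. Floral organ markers summed to 21.5 to 29.5 CPM, and 5 of the 11 were measured well enough to test. Root markers summed to 59.9 to 70.8 CPM, with 6 of 17 tested. Leaf markers summed to 5153, 3509 and 4600.1 CPM in the untreated and 1887, 1175 and 1505 CPM in the FRP libraries. Of 7 tested, SAG12 and CAT2 rose and RBCS1A and CAB3 fell (median 0.025, and 0.36 without replicate 1). SAG12 and CAT2 were counted at low levels, at most 2.81 and 13.1 CPM in any library. Reads on overlapping genes were not assigned, and whether this lowered the counts of CAT2 was not tested. Phloem markers summed to 280.4, 252 and 213 CPM and 676, 837 and 743 CPM. In such bulk samples, fewer cells of a type and less RNA per cell cannot be told apart.

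Of 20694 tested genes, 884 were higher (4.27%) and 1300 were lower (6.28%) after FRP at an adjusted p of at most 0.005 (quasi-likelihood test of edgeR, adjusted by the Benjamini-Hochberg method). Without untreated replicate 1 the counts were 6233 higher (30.2%) and 6254 lower (30.3%) of 20609 tested genes, and all 884 and all 1300 remained past the threshold in the same direction. Counts of list members given below are to be read beside these shares. Groups did not overlap, with all 3 FRP libraries above or all 3 below the untreated ones, in 30.9% and 32.6% of the tested genes. Among the 6233 genes called higher without replicate 1, this library lay between the mean of the other untreated libraries and the FRP mean in 4848, and in 2932 it was nearer to the FRP mean. The same held for 4911 and 2633 of the 6254 lower genes. Leaving out another library lowered the counts instead: 26 higher and 35 lower genes remained without untreated replicate 2, 17 and 25 without untreated replicate 3, and 2 and 1 without FRP replicate 1, 2 or 3. Few genes thus passed once any library other than untreated replicate 1 was left out, which is why values per library are given below. Removal of a smooth trend of log expression on transcript length, described at the end, left 1100 higher (5.34%) and 1645 lower (7.98%) genes with all 6 libraries, and 3955 (19.3%) and 5883 (28.7%) without replicate 1. A gene is said to have risen or fallen only where it passed with all 6 libraries, and each such gene passed without untreated replicate 1 as well. All gene-wise p-values are from the edgeR test and adjusted over all tested genes, and log2 fold changes are given with their standard error.

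The genes with the largest changes among those well counted were the clock genes CCA1 and LHY at the high end and AT1G14250 at the low end. AT1G14250 (AT1G14250, chr1:4868346-4871488), annotated as a nucleoside phosphatase of the GDA1/CD39 family, had 6.63, 27.1 and 57.2 CPM in untreated replicates 1, 2 and 3 and 0.122, 0 and 0.0326 CPM after FRP, 2061 against 4 counts in all. The ratio of its counts was 576-fold lower after FRP (95% counting interval 224 to 2114, which covers counting error only). AT1G07050 (AT1G07050, chr1:2163575-2165261), whose protein carries the CCT domain known from CO, had 52.7, 55.8 and 69 CPM against 0.774, 0.613 and 0.75 CPM, a log2 fold change of -6.36 ± 0.19 (adjusted p = 0.000117). Both genes fell in every FRP library, and the untreated replicates of AT1G07050 lay close together while those of AT1G14250 did not. The other genes that fell the most were LHCB1.4, MYB76, PORA, HMT3, a homocysteine S-methyltransferase gene, and AT4G17470, AT3G16670, AT5G26220 and AT1G49500, with log2 fold changes of -5.18 to -6.83.

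At the high end, FAF2 (AT1G03170, chr1:768376-770684), a member of a plant-specific gene family that acts on shoot meristem size, had 0.947, 0.842 and 0.944 CPM in the untreated libraries and 27.6, 24.2 and 26.9 CPM after FRP, a log2 fold change of 4.84 ± 0.16 (adjusted p = 0.000117). The 3 untreated values lay close together, and without replicate 1 the log2 fold change was 4.89 ± 0.14 (adjusted p = 1.50e-06). A pair of neighbouring genes on chromosome 4, AT4G22485 (AT4G22485, chr4:11844506-11846476) and AT4G22505 (AT4G22505, chr4:11851155-11853018), both annotated as lipid-transfer-like proteins, rose with log2 fold changes of 5.75 and 6.08. AT4G22505 had 7 counts in the untreated and 557 in the FRP libraries, a ratio of 71.2 (95% counting interval 34.3 to 178). NRT1.5, a nitrate transporter gene, PER64, a peroxidase gene, AT3G28510, an ATPase gene, AGO3 and PXMT1 completed the set. PXMT1 had 6 against 386 counts, a ratio of 57.6 (26.2 to 158).

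Morning clock genes rose in most members. Of 13 tested members, 10 rose and none fell with all 6 libraries, 12 passed as higher without untreated replicate 1, and the median log2 fold change was 2.57 (2.89 without replicate 1), beside -0.033 (-0.011) over all tested genes. CCA1 (AT2G46830, chr2:19245591-19248915), a MYB-type repressor of evening genes, had 1.04, 0.498 and 0.283 CPM in the untreated replicates and 71.9, 70.7 and 69.8 CPM after FRP, a log2 fold change of 6.86 ± 0.39 (adjusted p = 0.000412). Its partner LHY (AT1G01060, chr1:33365-37871) had 1.37, 0.651 and 0.897 CPM against 85.3, 69.1 and 77.2 CPM, a log2 fold change of 6.32 ± 0.29 (adjusted p = 0.000378). Each FRP library stood far above every untreated one for both genes, and untreated replicate 1 was the highest of its group for both. RVE8, a related MYB factor that activates evening genes, had 2.42, 2.41 and 2.36 CPM against 39.9, 34.9 and 39.4 CPM, with hardly any spread between the untreated replicates and a log2 fold change of 3.99 ± 0.13 (adjusted p = 0.000117). PRR9, the pseudo-response regulator expressed earliest in the day, had 1.28, 0.881 and 0.472 CPM against 8.6, 12.4 and 10.8 CPM, a log2 fold change of 3.59 ± 0.35 (adjusted p = 0.00148). LNK2, a co-activator that works with RVE8, rose from 16.7, 6.01 and 5.15 CPM to 118, 124 and 119 CPM.

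Of 11 tested evening clock genes, 4 fell (36.4%, beside 6.28% of all tested genes) and none rose. Without untreated replicate 1, 4 were lower and 2 higher, and the median log2 fold change went from -0.28 to 0.11. These transcripts have a median of 2441 bases. With the length trend removed, 5 were lower with all 6 libraries and 8 without replicate 1, and none was higher. The medians were then -0.78 and -0.74. FKF1 (AT1G68050, chr1:25508639-25510907), a blue-light receptor that with GI degrades repressors of CO, had 78.8, 53.8 and 58.9 CPM against 6.11, 8.3 and 5.77 CPM, a log2 fold change of -3.25 ± 0.22 (adjusted p = 0.000744). ELF4 and LUX, subunits of the evening complex that represses growth and clock genes at night, had 52.7, 44.3 and 46.8 CPM against 7.13, 7.64 and 7.44 CPM and 94.2, 115 and 102 CPM against 28.1, 39.4 and 31.9 CPM. Their log2 fold changes were -2.69 ± 0.12 and -1.65 ± 0.17 (adjusted p = 0.000378 and 0.00152). For these genes untreated replicate 1 lay well above the FRP libraries, as the other untreated libraries did.

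The evening element AAAATATCT, a short site that CCA1, LHY and RVE8 bind, was searched on both strands in the 500 bases before each gene's start (RefSeq annotation of TAIR10.1). It was found in 919 of 20614 tested genes (4.46%), in 88 of 1273 that fell (6.91%), in 42 of 883 that rose (4.76%), and in 4 of the 11 evening clock genes. CCR2, of the cold-regulated list, also fell and carried elements 23, 47 and 68 bases before its start, which are not shown. Windows of FKF1, LUX and COR27, which fell, and of TOC1 and PRR5, which did not pass, are shown 5′ to 3′ on the strand of the gene. The element is in capitals (AGATATTTT where it lies on the opposite strand), so that the same letters can be seen before genes of different response.
FKF1 (fell), chr1:25508256-25508284: gcgtttcacaAAAATATCTattatttgac
FKF1 (fell), chr1:25508443-25508471: tgagtaggctAGATATTTTctcggaatat
LUX (fell), chr3:17182979-17183007: tagaagatctAAAATATCTagctaactcg
COR27 (fell), chr5:17199912-17199940: gcagttgaagAAAATATCTttgatatttt
COR27 (fell), chr5:17199931-17199959: ggacggtggaAGATATTTTgcagttgaag
TOC1 (not past the threshold), chr5:24674802-24674830: aaatatcatgAGATATTTTctccaagatg
PRR5 (not past the threshold), chr5:8358820-8358848: caattctactAGATATTTTttcaaatcca
PRR5 (not past the threshold), chr5:8358715-8358743: gattttttctAGATATTTTcttttctcca

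FKF1 and COR27, which fell, and PRR5, which did not pass, thus each carried a pair of elements, and LUX and TOC1 a single one, while ELF4 fell with no match in this window, which says only that these letters were not there. COR27, a repressor of clock and cold genes whose elements lie next to its start, had 185, 199 and 189 CPM against 16.6, 17.3 and 17.2 CPM, a log2 fold change of -3.49 ± 0.12 (adjusted p = 0.000117). The G-box CACGTG, bound by bZIP and bHLH light factors, occurred in 10.2% of all tested genes and in 7 of the 13 morning clock genes. The CCA1-binding site AAAAATCT, shorter than the evening element, occurred in 12.3% of all tested genes, in 2 of the 11 evening and in 3 of the 13 morning clock genes. A match is a description of the letters only.

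**Figure D1:**
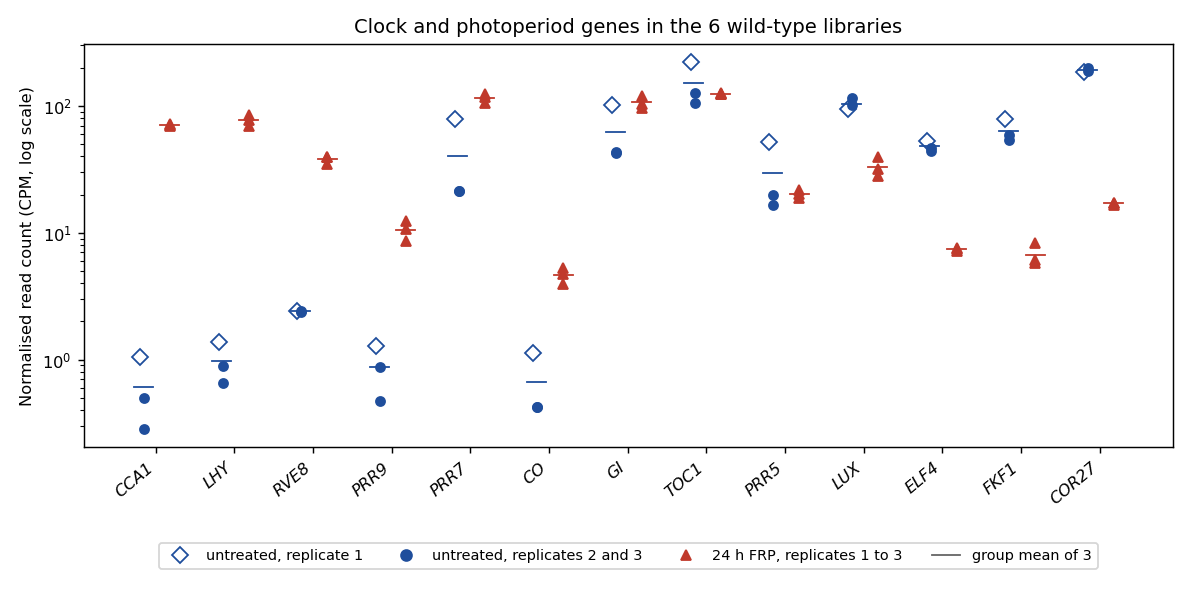
Normalised read counts (CPM, log scale) of 13 clock and photoperiod genes in the 6 wild-type libraries, with untreated replicate 1 as open diamonds, untreated replicates 2 and 3 as filled circles, FRP replicates as triangles and group means as lines. CCA1 lay between 0.283 and 1.04 CPM in the untreated libraries and between 69.8 and 71.9 CPM after FRP, while untreated replicate 1 stood apart from replicates 2 and 3 for PRR7, GI, TOC1 and PRR5.

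Untreated replicate 1 differed from the other untreated libraries in TOC1, PRR5, GI and PRR7, which are grouped here because of that difference, and hardly in ELF4 and LUX (above). TOC1, which closes the clock loop by repressing CCA1, had 221, 127 and 105 CPM in untreated replicates 1, 2 and 3 and 124, 127 and 123 CPM after FRP, and PRR5 had 51.9, 20 and 16.7 CPM against 18.7, 20.3 and 21.8 CPM. Neither passed the threshold with or without replicate 1, and their log2 fold changes of -0.28 ± 0.27 and -0.54 ± 0.42 became 0.11 ± 0.089 and 0.15 ± 0.11 without it. With the length trend removed, TOC1 was lower with and without replicate 1 (-0.85 and -0.74, adjusted p = 0.0038 and 0.0004), and PRR5 passed in neither. For GI, a clock protein that also promotes CO, the values were 101, 43.7 and 42.5 CPM against 97.2, 120.2 and 103 CPM. GI was not called with all 6 libraries (0.78 ± 0.35, adjusted p = 0.103) and was higher without replicate 1 (1.32 ± 0.11, adjusted p = 4.04e-05). PRR7 behaved likewise, with 78.6, 21.5 and 21.5 CPM against 106, 124 and 118 CPM. Replicate 1 was the highest untreated library for these 4 genes, and for TOC1 and PRR5 it was above all FRP libraries.

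Photoperiod genes downstream of the clock changed in both directions. Of 20, 4 rose (20%) and 5 fell (25%), beside 4.27% and 6.28% of all tested genes. The counts without replicate 1 were 6 higher (30%) and 7 lower (35%), near the 30.2% and 30.3% of all tested genes. CO (AT5G15840, chr5:5170162-5173085) had 1.14, 0.421 and 0.425 CPM in the untreated and 5.26, 3.96 and 4.7 CPM in the FRP libraries, a log2 fold change of 2.82 ± 0.41 (adjusted p = 0.00363). CDF1 and CDF2, DOF-type repressors of CO, also rose, from 10.5, 5.51 and 5.85 CPM to 24.2, 30.6 and 28.5 CPM and from 5.78, 4.29 and 2.27 CPM to 18.9, 25.4 and 22.8 CPM. Both repressors and their target were thus at their highest in the FRP libraries, and their groups did not overlap. COL9, a CO relative that delays flowering, fell from 146, 127 and 112 CPM to 39.4, 35.8 and 37.2 CPM (-1.78 ± 0.14, adjusted p = 0.00102). SNZ, an AP2-type floral repressor, fell from 8.43, 9.42 and 10.1 CPM to 3.38, 3.21 and 3.16 CPM (-1.52 ± 0.15, adjusted p = 0.00152).

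Among the flowering genes of the apex, TSF, FDP and SOC1 rose from untreated levels of at most 9.46 CPM. Of 6 tested genes of the florigen family and FD, 2 rose (33.3%, beside 4.27% of all tested genes) and none fell. Without replicate 1, 4 of them were higher and none lower. FT had 0 counts in all 6 libraries, from which leaves had been removed. TSF (AT4G20370, chr4:11000771-11003010), its closest relative, had 0.284, 0.153 and 0.236 CPM against 1.34, 1.56 and 1.37 CPM, a log2 fold change of 2.66 ± 0.32 (adjusted p = 0.00217). SOC1 (AT2G45660, chr2:18807505-18811125), a MADS-box integrator of flowering signals, had 8.53, 9.46 and 7.18 CPM against 26.2, 20.6 and 23 CPM, a log2 fold change of 1.47 ± 0.16 (adjusted p = 0.00188), and was the only one of 14 integrators and MADS-box regulators to pass with all 6 libraries (1 higher and 5 lower without replicate 1). FDP, the bZIP relative of FD, rose from 7.15, 7.08 and 7.41 CPM to 13.1, 15.2 and 15 CPM (1.00 ± 0.13, adjusted p = 0.00293). FD itself had 17.2, 11.4 and 12.5 CPM against 17.5, 14.3 and 16.5 CPM and did not pass with all 6 libraries or without replicate 1 (adjusted p = 0.329 and 0.00901).

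Of the floral meristem identity genes, AP1, CAL and LFY were near the detection limit. AP1 (AT1G69120, chr1:25982294-25986349), the MADS-box gene that marks young flowers, had 0.0474, 0.0383 and 0 CPM against 0.978, 0.471 and 0.848 CPM. That is 2 against 60 counts, a ratio of 26.9 (95% counting interval 7.12 to 227), and AP1 passed the threshold (adjusted p = 0.00366, and 0.00113 without replicate 1). CAL, its paralogue, had 0 against 23 counts, at least 2.33-fold higher against a floor of 3 counts per untreated library. LFY (AT5G61850, chr5:24844248-24846989), which specifies floral fate, had 0.568, 0.306 and 0.378 CPM against 1.71, 1.18 and 1.66 CPM, a log2 fold change of 1.87 ± 0.33 that missed the threshold with all 6 libraries (adjusted p = 0.00648) and passed without replicate 1 (2.17 ± 0.33, adjusted p = 0.000803). The FRP values of LFY were all above the untreated ones. FUL had 1.18, 1.11 and 2.03 CPM against 4.32, 1.32 and 3.36 CPM, its groups overlapped, and it did not pass in either fit (adjusted p = 0.0983 and 0.12). In this list of 10 tested genes, 2 rose with all 6 libraries (20%, beside 4.27% of all tested genes), AP1 and PNF. PNF, described below, was well counted, with 9.21 to 29.8 CPM. None of the 10 fell, and 5 were higher without replicate 1.

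TFL1 (AT5G03840, chr5:1024500-1025872), the repressor of floral fate, had 3.13, 8.04 and 7.13 CPM against 18.4, 14 and 13.8 CPM. It was higher in each FRP library than in any untreated one, with a log2 fold change of 1.33 ± 0.35 (adjusted p = 0.0203) that passed only without replicate 1 (1.03 ± 0.15, adjusted p = 0.000764). SVP, a MADS-box repressor of flowering, had 149.9, 181 and 159.6 CPM against 117, 128 and 124 CPM and was lower by the same test only without replicate 1 (-0.46 ± 0.082, adjusted p = 0.00181). Of 12 SPL factors, which promote phase change and are targets of the microRNA miR156, SPL11 rose (1.57, adjusted p = 0.00481), and 8 were higher without replicate 1. With the length trend removed as well, 4 of them were higher and 1 was lower.

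**Figure D2:**
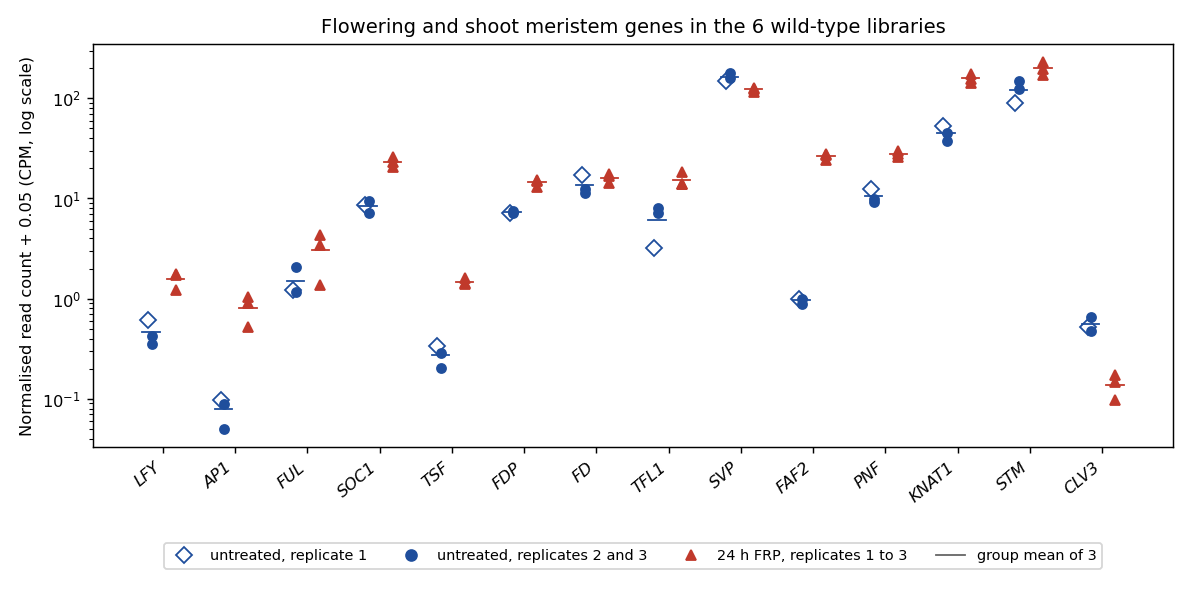
Normalised read counts plus 0.05 (CPM, log scale) of 14 flowering and meristem genes, with symbols for untreated replicate 1 (open diamonds), untreated replicates 2 and 3 (circles) and FRP replicates (triangles), and lines at group means. FAF2 rose from 0.842 to 0.947 CPM in the untreated libraries to 24.2 to 27.6 CPM, while AP1 reached at most 0.978 CPM.

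Of 19 shoot meristem genes, 4 rose (21.1%) and 1 fell (5.26%), beside 4.27% and 6.28% of all tested genes. The counts without replicate 1 were 10 higher (52.6%) and 6 lower (31.6%), beside 30.2% and 30.3%. KNAT1 (AT4G08150, chr4:5147699-5151159), a KNOX homeobox gene which shapes stem and pedicels, had 52.9, 44.9 and 37.5 CPM against 143, 176 and 155 CPM, a log2 fold change of 1.81 ± 0.17 (adjusted p = 0.0014), and KNAT2 had 13.1, 14.3 and 12.4 CPM against 28.8, 32.4 and 32.7 CPM (1.24 ± 0.12, adjusted p = 0.00148). PNF, a BEL1-type partner of KNOX proteins, rose from 12.4, 9.8 and 9.21 CPM to 26, 29.8 and 27.8 CPM (1.41 ± 0.16, adjusted p = 0.0018). STM had 90.2, 149 and 123 CPM against 172, 229 and 198 CPM and did not pass in either fit (adjusted p = 0.0303 and 0.0094). CLV3, which signals from stem cells, had 34 against 7 counts, 5.43-fold lower after FRP (95% counting interval 2.37 to 14.5), and passed only without replicate 1 (adjusted p = 0.00729 and 0.00362). ULT1, an antagonist of Polycomb repression that limits meristem size, fell from 25.8, 28 and 29.9 CPM to 14.3, 12.9 and 13.4 CPM. LSH4, expressed at organ boundaries, rose from 104, 114 and 104 CPM to 204, 203 and 197 CPM. Of 32 leaf polarity and growth genes, 4 rose and 4 fell (12.5% each, beside 4.27% and 6.28% of all tested genes). Without replicate 1, 11 were higher and 14 lower. Those that fell included TCP3 and TCP24, which drive the exit of leaf cells from division, and YAB5, of the YABBY family of young lateral organs, with log2 fold changes of -1.18 to -1.94.

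Light receptors and signalling genes showed a mixed pattern that depended on untreated replicate 1 for the receptors. PHYB (AT2G18790, chr2:8139756-8144461), the main receptor of the red to far-red ratio, rose from 44.3, 31.6 and 32.9 CPM to 224, 197 and 215 CPM, a log2 fold change of 2.55 ± 0.17 (adjusted p = 0.000744). It stood alone among 11 photoreceptor genes with all 6 libraries, whereas 10 of the 11 were higher and 1 was lower without replicate 1. PHYA, the receptor of continuous far-red light, had 103, 54.6 and 58.2 CPM against 139, 161 and 152 CPM and passed only without replicate 1 (1.43 ± 0.09, adjusted p = 1.48e-05). The photoreceptor transcripts are long, with a median of 3802 bases against 1712 over all tested genes. With the length trend removed and without replicate 1, 3 were higher and 3 lower, PHYB remained higher (1.14, adjusted p = 4.85e-05), and PHYA did not (-0.19, adjusted p = 0.0669).

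Of 21 light signalling regulators, 4 rose (19%) and 3 fell (14.3%), beside 4.27% and 6.28% of all tested genes. The counts without replicate 1 were 15 higher (71.4%) and 5 lower (23.8%), beside 30.2% and 30.3%. SPA1, a partner of the COP1 ubiquitin ligase that degrades CO and HY5 in the dark, rose from 30.7, 20 and 21 CPM to 84.6, 81.4 and 77.4 CPM (1.76 ± 0.19, adjusted p = 0.00173), but missed the threshold with the length trend removed (0.65, adjusted p = 0.00689). SPA4 rose from 9.14, 6.43 and 6.37 CPM to 23.5, 21.8 and 21.1 CPM. HYH, a bZIP activator of light-induced genes, rose from 1.09, 0.804 and 0.85 CPM to 3.99, 2.78 and 4.11 CPM, and HY5 had 7.34, 5.82 and 6.04 CPM against 10.3, 9.95 and 11.5 CPM (adjusted p = 0.0117, and 0.000544 without replicate 1). BBX22 and BBX20, B-box partners of HY5, fell, BBX22 from 57.5, 57.9 and 54.6 CPM to 14.1, 17.6 and 16.5 CPM. FHY1, which carries phytochrome A into the nucleus, fell from 28.1, 48 and 51.7 CPM to 14, 13.4 and 15 CPM (-1.59 ± 0.24, adjusted p = 0.00393).

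Genes of the shade response did not move together. Of 26, 1 rose (3.85%) and 5 fell (19.2%), beside 4.27% and 6.28% of all tested genes. Without replicate 1, 4 were higher and 10 lower. PAR1 and PAR2, HLH repressors of elongation that shade induces in seedlings, fell from 12.3, 24.9 and 22.3 CPM to 5.74, 4.29 and 4.99 CPM and from 7.06, 12.4 and 11.7 CPM to 3.26, 3.63 and 3.39 CPM. HAT1, a homeodomain gene of the shade-induced class, fell from 31.8, 65.1 and 52.5 CPM to 16.9, 16.8 and 15.5 CPM (-1.60 ± 0.26, adjusted p = 0.00488). PIF6 rose from 1.85, 0.728 and 0.661 CPM to 7.45, 6.84 and 6.56 CPM. PIF4, which drives elongation, had 111, 91.9 and 70.7 CPM against 52.3, 58.6 and 52.3 CPM and was lower only without replicate 1 (-0.57 ± 0.12, adjusted p = 0.00374), and PIF5 did not pass in either fit. PIL1, an early marker of low red to far-red light, had 3.69, 11 and 8.69 CPM against 40.7, 26.5 and 34.1 CPM. HFR1, a further such marker, had 2.65, 16.6 and 9.68 CPM against 37.3, 39.6 and 37 CPM. Untreated replicate 1 was the lowest library for both, the groups did not overlap, and both were higher only without replicate 1 (adjusted p = 0.000161 and 0.000375).

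Nuclear genes of photosynthesis fell in most members. Of 45 tested photosystem and antenna genes, 35 fell and 1 rose, and 44 had a negative log2 fold change. Without untreated replicate 1, 42 were lower, and the median log2 fold change was -1.68 with all 6 libraries and -1.73 without it. LHCB1.4 (AT2G34430, chr2:14524607-14525918), which encodes a light-harvesting protein of photosystem II, had 185, 341 and 355 CPM against 3.87, 1.65 and 2.19 CPM, a log2 fold change of -6.83 ± 0.46 (adjusted p = 0.000744). LHCB1.1 (AT1G29920, chr1:10474656-10475969) had 735, 412 and 774 CPM against 85.1, 48 and 68.6 CPM and CAB3 1401, 1172 and 1501 CPM against 267, 138 and 194 CPM. The LHCB1 genes are near-identical copies, so that the split of reads among them is uncertain. PSAE-1, a stromal subunit of photosystem I, fell from 158, 208 and 266 CPM to 37.4, 24.1 and 29.9 CPM (-2.79 ± 0.26, adjusted p = 0.00138). The exception was LHCB4.3, an antenna gene expressed apart from its paralogues, which rose from 7.25, 6.05 and 6.66 CPM to 19.8, 12.7 and 17.6 CPM (1.33 ± 0.20, adjusted p = 0.00406).

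**Figure D3:**
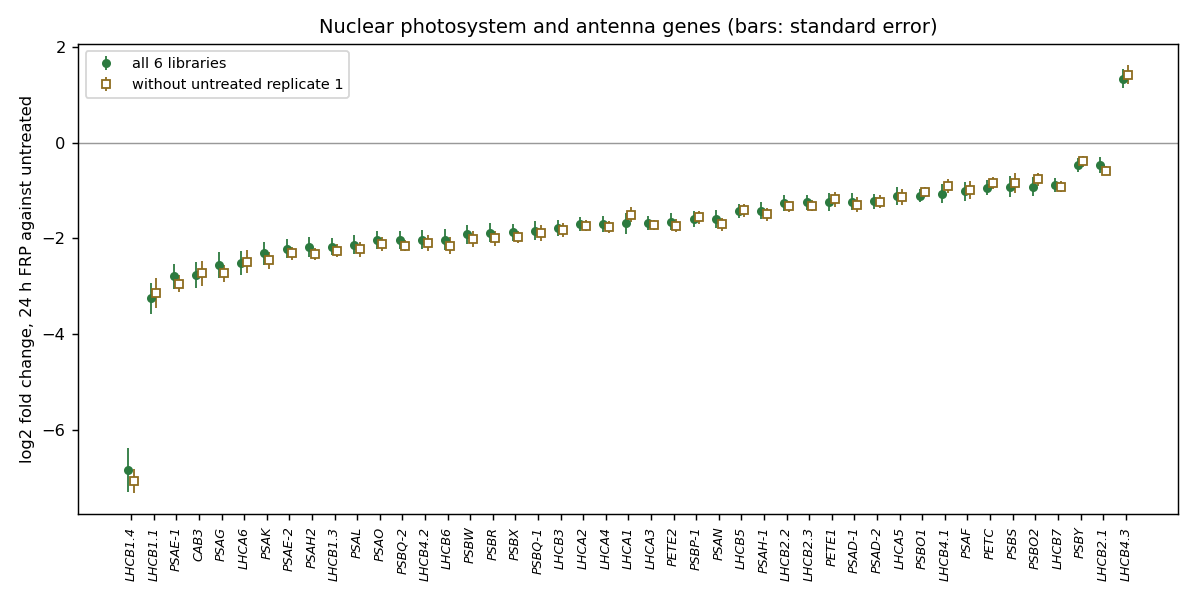
Log2 fold change (24 h FRP against untreated, bars of 1 standard error) of the 45 tested nuclear photosystem and antenna genes, with all 6 libraries (filled circles) and without untreated replicate 1 (open squares). Values ran from -6.83 (LHCB1.4) to 1.33 (LHCB4.3), and the open and filled symbols stood close to each other for each gene.

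Of 19 carbon fixation genes, 6 fell and none rose (0 higher and 10 lower without replicate 1). RBCS1A, the most abundant small subunit gene of Rubisco, fell from 3255, 2138 and 2811 CPM to 1112, 648 and 871 CPM (-1.64 ± 0.25, adjusted p = 0.00421). CP12-2 and CP12-1, small regulators of the Calvin cycle, fell with log2 fold changes of -2.64 and -1.70. In chlorophyll synthesis PORA and PORB, the light-dependent protochlorophyllide reductases, fell from 9.24, 6.43 and 9.73 CPM to 0.0815, 0.0943 and 0.163 CPM and from 888, 658 and 862 CPM to 283, 245 and 258 CPM. ELIP2 (AT4G14690, chr4:8418242-8419325), an early light-induced photoprotective protein, moved the other way, from 0.758, 0.651 and 0.519 CPM to 11.2, 11.1 and 11.3 CPM (4.11 ± 0.20, adjusted p = 0.000378). Reads on plastid genes made up 0.0172% to 0.0244% of the counts in the untreated and 0.00551% to 0.00600% in the FRP libraries. RBCS1A and CAB3, which are also among the leaf markers given above, carried the fall of the sum of those markers. The leaf markers that rose, SAG12 and CAT2, were counted at low levels and added little to that sum, with the limit on CAT2 given above. The part of tissue composition in the photosynthesis lists was not tested.

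Histone genes were lower after FRP in nearly all members, but few passed with all 6 libraries. Of 38 tested core histone genes, 5 fell (13.2%, beside 6.28% of all tested genes). Lower without untreated replicate 1 were 36 (94.7%, beside 30.3%), and none was higher in either fit. In 36 the FRP libraries lay below all untreated ones, as they did in 32.6% of all tested genes. Their summed level was 4647, 7313 and 8138 CPM in untreated replicates 1, 2 and 3 and 3339.7, 2809 and 3080.3 CPM after FRP, so that replicate 1 lay between the groups. HTB9, an H2B gene, fell from 126, 191 and 226 CPM to 57.1, 52.4 and 52.8 CPM (-1.74 ± 0.22, adjusted p = 0.00257), and RAT5, an H2A gene, from 35.3, 53.5 and 60.5 CPM to 20, 14.8 and 18.2 CPM. Core histone transcripts are short, with a median of 840.5 bases, and with the length trend removed and without replicate 1, 33 of them were still lower. Several histone genes encode identical proteins, and their counts may be shared.

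Of 33 mitotic genes, 2 fell and none rose, and without replicate 1 6 were higher and 10 lower. The shares called lower (6.06% and 30.3%) were close to those of all tested genes (6.28% and 30.3%). The members that fell were CKS2, a subunit of cyclin-dependent kinases, which fell from 53.2, 66.5 and 77.1 CPM to 27, 23.5 and 26.4 CPM, and CDKB1;2, a plant kinase of the G2 phase, which fell from 12.2, 17.5 and 16.3 CPM to 7.5, 5.94 and 5.61 CPM. The D-type cyclin genes CYCD6;1 and CYCD1;1, which drive entry into the cycle, fell with log2 fold changes of -1.60 ± 0.18 and -0.71 ± 0.11. Among the inhibitors of these kinases, KRP6 rose (1.05 ± 0.15, adjusted p = 0.00321) and SMR1 fell (-1.52 ± 0.18, adjusted p = 0.00209).

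For cytosolic ribosomal protein genes the number called rested on untreated replicate 1, while the direction of change did not. With all 6 libraries, 1 of 125 fell, which was AT3G02560, a gene for protein S7, from 436, 607 and 642 CPM to 269.8, 249.7 and 267 CPM. Without replicate 1, 100 were lower and 4 higher. The median log2 fold change was -0.73 with all 6 libraries and -0.93 without replicate 1. With all 6, 112 of the 125 had a negative log2 fold change. In 81 the FRP libraries lay below all untreated ones, as they did in 32.6% of all tested genes. The ribosomal protein transcripts have a median length of 904 bases. After removal of the length trend and without replicate 1, 61 were lower and 7 higher. Of 18 ribosome biogenesis genes, 6 rose, among them NUC-L2, a nucleolin gene, from 2.42, 1.03 and 1.32 CPM to 12.5, 18.1 and 15.3 CPM (3.27 ± 0.34, adjusted p = 0.0016). Without replicate 1, 11 were higher and 2 lower. After removal of the length trend 3 were higher with all 6 libraries, and 5 were higher and 2 lower without replicate 1. TOR, the growth kinase that senses nutrients, rose from 57.6, 23.5 and 25.6 CPM to 180.2, 195 and 187 CPM (2.40 ± 0.36, adjusted p = 0.00404). Its log2 fold change with the length trend removed was 0.63 with all 6 libraries and 0.66 without replicate 1.

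Genes of the auxin response changed in both directions. Of 25 Aux/IAA genes, which encode short-lived repressors that auxin itself induces, 7 fell and none rose, and 19 were lower without untreated replicate 1. IAA1 fell from 31.4, 24.6 and 27.1 CPM to 5.83, 6.69 and 5.06 CPM (-2.24 ± 0.17, adjusted p = 0.000892), IAA3 from 42, 66.4 and 50.5 CPM to 10.8, 16.8 and 15.4 CPM and IAA7 from 115, 126 and 96.4 CPM to 23.9, 37.9 and 29.8 CPM. Of 58 SAUR genes, small auxin-induced genes of cell elongation, 2 fell with all 6 libraries (3.45%, beside 6.28% of all tested genes), and 38 were lower and 3 higher without replicate 1. The member that fell the most was AT4G34790 (AT4G34790, chr4:16594362-16595153), from 6.58, 29.6 and 22.9 CPM to 0.611, 1.18 and 0.816 CPM, with replicate 1 the lowest untreated library. PIN4, an auxin efflux carrier of the apex and root, fell from 79.4, 82.4 and 88.4 CPM to 25.3, 27.3 and 25.9 CPM (-1.67 ± 0.11, adjusted p = 0.000744). GH3.9, of a family that conjugates auxin to amino acids, rose from 12.2, 9.76 and 9.54 CPM to 63.1, 69.2 and 67.1 CPM (2.66 ± 0.14, adjusted p = 0.000401). Of 15 auxin response factors, none fell, 11 were higher without replicate 1 and, with the length trend removed as well, 4 were higher and 4 lower. The 2 that rose were ARF4 and ARF3, which act in the abaxial side of organs and in the flower primordium, from 90.1, 79.2 and 74 CPM to 206, 216 and 211 CPM and from 69, 63.9 and 61.7 CPM to 120.1, 109 and 112 CPM. With the length trend removed and without replicate 1, ARF4 kept a log2 fold change of 0.36 (adjusted p = 0.00303) and ARF3 one of 0.27 (adjusted p = 0.0118).

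Cytokinin genes changed in both directions. IPT5 (AT5G19040, chr5:6361776-6363713), which encodes an enzyme of the committed step of synthesis, rose from 2.79, 3.52 and 2.83 CPM to 22.3, 26.1 and 24.7 CPM (2.99 ± 0.16, adjusted p = 0.000401). Within the LOG family, which releases the active hormone, LOG5 rose from 2.13, 2.26 and 2.27 CPM to 21.1, 18.4 and 18.7 CPM (3.12 ± 0.15, adjusted p = 0.000378), while LOG1 fell from 16.7, 16.2 and 17.8 CPM to 5.01, 4.05 and 3.75 CPM (-1.99 ± 0.16, adjusted p = 0.00109) and LOG3 fell with a log2 fold change of -1.69. CKX1, an oxidase that degrades cytokinin, rose from 6.35, 3.6 and 3.45 CPM to 25.9, 23.5 and 22.9 CPM. In all, 7 of 33 metabolism and receptor genes rose (21.2%) and 2 fell (6.06%), beside 4.27% and 6.28% of all tested genes. The counts without replicate 1 were 14 higher (42.4%) and 7 lower (21.2%), beside 30.2% and 30.3%. Of 8 type-A response regulators, which cytokinin induces and which dampen its signal, ARR16 fell from 8.53, 8.65 and 10.9 CPM to 1.3, 0.707 and 1.37 CPM (-3.03 ± 0.28, adjusted p = 0.00138), and 6 were lower without replicate 1.

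Among the other hormones, GASA4, a gibberellin-responsive peptide gene, fell from 1023, 1369 and 1343 CPM to 233, 179 and 206 CPM (-2.60 ± 0.18, adjusted p = 0.000761). None of 12 gibberellin metabolism genes passed with all 6 libraries by the edgeR test, and 4 were higher and 2 lower without replicate 1. In jasmonate synthesis, AOC2 and AOC1, which encode allene oxide cyclases, fell from 27.6, 37 and 46.9 CPM to 3.95, 3.91 and 3.95 CPM and from 7.53, 16.6 and 16.8 CPM to 2.97, 1.79 and 2.64 CPM. In the abscisic acid pathway AFP4, a repressor of the response, rose from 0.9, 0.306 and 0.236 CPM to 5.46, 8.06 and 6.03 CPM and CYP707A4, an enzyme that degrades the hormone, from 4.22, 5.17 and 5.81 CPM to 19.2, 19.8 and 19.8 CPM. In this list of 29 tested genes, 4 rose (13.8%) and 3 fell (10.3%), and 17 were higher and 5 lower without replicate 1. RD20 also rose (1.84 ± 0.17, adjusted p = 0.00139), and those that fell were LTI30, COR15A and SNRK2.3. HAB1 alone rose among 17 receptor and phosphatase genes of this hormone (1.13 ± 0.11, adjusted p = 0.00148). It missed the threshold with the length trend removed (0.48, adjusted p = 0.0345). MAX1, a cytochrome P450 of strigolactone synthesis, rose from 19.5, 20.2 and 18.1 CPM to 64.4, 71.2 and 66.3 CPM (1.81 ± 0.12, adjusted p = 0.000696). DRM1, a marker of dormant buds, fell from 515, 702 and 569 CPM to 266, 318 and 287 CPM, and HB53, a homeodomain gene of bud dormancy, rose from 3.08, 1.61 and 1.65 CPM to 11, 6.65 and 8.87 CPM. EIN2, the central ethylene signalling gene, rose from 70.3, 45.8 and 45.7 CPM to 144, 155 and 153 CPM, but with the length trend removed its log2 fold change was 0.17 (adjusted p = 0.34).

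Among genes of sugar signalling and starch, some rose and others fell. Of 31 sugar starvation genes, 1 rose (3.23%) and 3 fell (9.68%), and of 32 starch genes 3 rose (9.38%) and 2 fell (6.25%). Over all tested genes the shares were 4.27% and 6.28%, so that these small counts lay near them. Without replicate 1, 12 starvation genes were higher and 5 lower, and 21 starch genes were higher and 4 lower (30.2% and 30.3% of all tested genes). The starch transcripts are long, with a median of 2638.5 bases. With the length trend removed as well, 5 starch genes were higher and 11 lower, and their median log2 fold change went from 0.72 to -0.34. Of the starvation genes, 8 were then higher and 8 lower. Of 9 trehalose phosphate synthase genes 1 rose, and of 9 phosphatase genes of the same sugar 2. TPS1, whose product makes trehalose 6-phosphate, a sugar signal required for flowering, rose from 55.5, 28.3 and 28.8 CPM to 169, 171 and 174 CPM (2.19 ± 0.28, adjusted p = 0.00266). Its transcript has 5000 bases, and with the length trend removed its log2 fold change was 0.89 (adjusted p = 0.000979). TPPD and TPPF, phosphatases that remove this signal, rose from 5.16, 3.71 and 3.92 CPM to 28.1, 23.1 and 24.7 CPM and from 7.25, 6.24 and 7.27 CPM to 33.7, 45.7 and 37.8 CPM (2.57 ± 0.18 and 2.50 ± 0.16, adjusted p = 0.00078 and 0.000705). BZIP1 and BZIP63, regulators of the starvation response, fell from 20.4, 22.6 and 13.3 CPM to 5.01, 6.84 and 5.71 CPM and from 33.4, 63.7 and 55.9 CPM to 17.3, 18.7 and 18.1 CPM. GBSS1, the starch synthase of amylose and a gene under clock control, rose from 25.2, 15.6 and 13.3 CPM to 60.1, 55.6 and 57.6 CPM. APL3, a subunit of the enzyme that commits glucose to starch, rose from 49.7, 44 and 48.9 CPM to 120.3, 105 and 113 CPM. SEX4, a phosphatase of starch breakdown, fell from 116, 106 and 110.3 CPM to 65.4, 58.1 and 65.2 CPM.

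NIA1 (AT1G77760, chr1:29235721-29239484), a nitrate reductase gene, rose from 27.8, 32.2 and 37.9 CPM to 269.8, 292 and 270.5 CPM (3.09 ± 0.16, adjusted p = 0.000395). NRT1.5 (AT1G32450, chr1:11715147-11719988), which loads nitrate into the xylem of roots, rose from 8.62, 3.91 and 3.64 CPM to 107, 188 and 147 CPM (4.78 ± 0.43, adjusted p = 0.00132). LBD37, a repressor of nitrogen-responsive genes, fell from 36.8, 76.7 and 64.2 CPM to 15.8, 14.6 and 15 CPM (-1.97 ± 0.27, adjusted p = 0.00301). Of 25 nitrate and nitrogen genes, 4 rose (16%) and 1 fell (4%), beside 4.27% and 6.28% of all tested genes. The counts without replicate 1 were 13 higher (52%) and 5 lower (20%), beside 30.2% and 30.3%. One that rose was GLT1, a glutamate synthase gene with a transcript of 7625 bases (1.38 ± 0.21, adjusted p = 0.004), and with the length trend removed its log2 fold change was -0.42 with all 6 libraries and -0.57 without replicate 1 (adjusted p = 0.0635 and 0.000294).

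Glucosinolates are sulphur-rich defence compounds of this plant family, made from methionine (aliphatic) or tryptophan (indolic). Of 25 tested genes, 12 fell and none rose with all 6 libraries (5 higher and 15 lower without replicate 1). All 12 act in the aliphatic branch. CYP79F1 (AT1G16410, chr1:5608682-5612064), which commits chain-elongated methionine to this pathway, fell from 738, 643 and 677 CPM to 18.9, 37.1 and 25.6 CPM (-4.66 ± 0.28, adjusted p = 0.00057). AOP2 (AT4G03060, chr4:1351688-1354096), a side-chain enzyme, fell from 135, 279.5 and 224 CPM to 10.6, 10.8 and 10.6 CPM (-4.31 ± 0.29, adjusted p = 0.000744). Of the 3 MYB activators of the aliphatic branch, MYB76 fell from 6.63, 20.1 and 13.2 CPM to 0.122, 0.0471 and 0.163 CPM and MYB29 from 167, 257 and 193 CPM to 33, 36.9 and 34.8 CPM. MYB28 had 209.8, 238 and 193 CPM against 321, 335 and 318 CPM and was higher only without replicate 1 (adjusted p = 0.0107 and 0.00118). CYP79B2 and CYP83B1 of the indolic branch had log2 fold changes of 1.55 and 1.67 and were higher only without replicate 1.

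Heat shock genes rose in 9 of 19 tested members and none fell, and 17 were higher and 1 lower without untreated replicate 1. HSP70 (AT3G12580, chr3:3991117-3993886), a chaperone gene, had 3.22, 2.18 and 2.08 CPM against 20.2, 43 and 31.3 CPM (3.66 ± 0.34, adjusted p = 0.00139), HSFA2, a heat shock factor gene, 0.71, 1.23 and 0.991 CPM against 3.58, 7.26 and 6.2 CPM, and HSP90.1 4.12, 2.3 and 3.16 CPM against 10.1, 17.5 and 14.4 CPM. FRP replicate 2 was the highest library for these 3 genes and replicate 1 the lowest of its group. Of 22 cold-regulated genes, 7 fell and none rose with all 6 libraries, whereas without replicate 1 11 were lower and 8 higher, and the median log2 fold change went from -0.72 to -0.15. Among those that fell was COR15B, a chloroplast-protecting protein gene, from 84.3, 58.4 and 80.5 CPM to 6.15, 2.88 and 4.37 CPM (-4.05 ± 0.31, adjusted p = 0.000976) and COR15A from 117, 93.5 and 123 CPM to 42.5, 39.2 and 39.8 CPM. LTI30, a dehydrin gene, fell from 37.5, 47.5 and 40.4 CPM to 6.4, 7.59 and 7.44 CPM. In salicylic acid signalling, PAD4, a lipase-like immune regulator, rose from 20.1, 11.1 and 13 CPM to 50.8, 103 and 75 CPM (2.37 ± 0.33, adjusted p = 0.00327). SAG12, a protease gene of leaf senescence, had 2 counts in the untreated and 199 in the FRP libraries, a ratio of 89.1 (95% counting interval 24.3 to 741). ICS2, one of a pair of isochorismate synthase genes, fell from 7.29, 5.97 and 6.18 CPM to 2, 2.22 and 2.06 CPM.

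Of 33 cell wall genes, 3 rose (9.09%) and 7 fell (21.2%), beside 4.27% and 6.28% of all tested genes. Without replicate 1, 9 were higher and 13 lower. CESA8, CESA7 and CESA4, the cellulose synthases of secondary walls in vessels and fibres, rose from 4.82 to 15.9 CPM across the untreated libraries to 25.3 to 52.7 CPM across the FRP libraries, with log2 fold changes of 2.31, 2.24 and 1.55 (adjusted p = 0.00151 to 0.00165). With the length trend removed and without replicate 1 these were 1.41, 0.96 and 0.31 (adjusted p = 0.000576, 0.00616 and 0.105), so that CESA8 alone kept its call. EXPA11 and EXPA3, expansin genes of cell growth, fell from 30.6, 54.5 and 30.6 CPM to 5.3, 8.11 and 6.95 CPM and from 126, 165 and 147 CPM to 48.6, 49.3 and 45 CPM, and XTH8 from 48, 49 and 40.1 CPM to 14.1, 16 and 15.2 CPM. Of 9 phloem markers, 5 rose and 8 were higher without replicate 1. They included SUC2, which loads sucrose into the phloem (44.3, 31.7 and 24.7 CPM against 90.5, 129 and 108 CPM), SEOR1, a filament protein of sieve elements (23.8, 15.3 and 14.6 CPM against 78.3, 89.7 and 84.1 CPM), and CALS7, a callose synthase of sieve plates (7.39, 5.32 and 4.82 CPM against 32.5, 35 and 34.2 CPM). CALS7 missed the threshold with the length trend removed (0.88, adjusted p = 0.00817). Phloem markers thus moved with the treatment, and the part of vascular tissue content in other results was not tested.

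The change after FRP was related to the length of the transcript. When the tested genes were ordered by length and cut into 10 classes of equal size, the class of shortest transcripts (42 to 857 bases) had a median log2 fold change of -0.70 with all 6 libraries, and the class of longest ones (3126 to 16593 bases) one of 1.03. Without untreated replicate 1 these medians were -0.87 and 1.45, and 84.7% of the class of longest transcripts were called higher. The slope of log2 expression on log2 length, relative to the mean of the 6 libraries, was 0.044, -0.42 and -0.44 in untreated replicates 1, 2 and 3 and between 0.26 and 0.29 in the FRP libraries, so that replicate 1 again lay between the groups. Of 164 genes named by rule that passed with all 6 libraries, 19 did not pass with the trend removed (RBCS1A, BBX20 and BZIP1 among them) and 10 did not with it removed and without replicate 1. Lists of long genes moved with it. Of 49 chromatin regulators and co-repressors (median 3456 bases), 3 rose with all 6 libraries and 36 were higher and 1 lower without replicate 1. With the trend removed as well, 19 were higher and the median log2 fold change was 0.11. SYD (AT2G28290, chr2:12056213-12073279), a chromatin remodelling ATPase that acts with LFY, rose from 68.7, 30.1 and 29.3 CPM to 303, 314 and 306 CPM (2.85 ± 0.36, adjusted p = 0.00251), and with the trend removed and without replicate 1 its log2 fold change was 0.81 (adjusted p = 8.61e-05).

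Small RNA genes showed the same dependence. Of 24 (median 3666 bases), 6 rose and none fell with all 6 libraries, 21 were higher without replicate 1, and 10 with the trend removed as well. AGO3 (AT1G31290, chr1:11188120-11192585), an Argonaute protein that binds small RNAs, had 0.426, 0.0766 and 0.142 CPM against 4.85, 15.4 and 9.43 CPM and kept a log2 fold change of 5.12 under that setting (adjusted p = 0.0018). AGO9, which acts in the germ line, rose from 3.32, 2.41 and 2.22 CPM to 11.9, 11.5 and 11.9 CPM. NRPE1, the largest subunit of RNA polymerase V, rose from 16.1, 9.69 and 10.3 CPM to 45.4, 42.3 and 43.3 CPM, but its value under that setting was 0.10 (adjusted p = 0.273). Whether the length trend comes from the samples or from the RNA and library preparation cannot be told apart here.

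**Figure D4:**
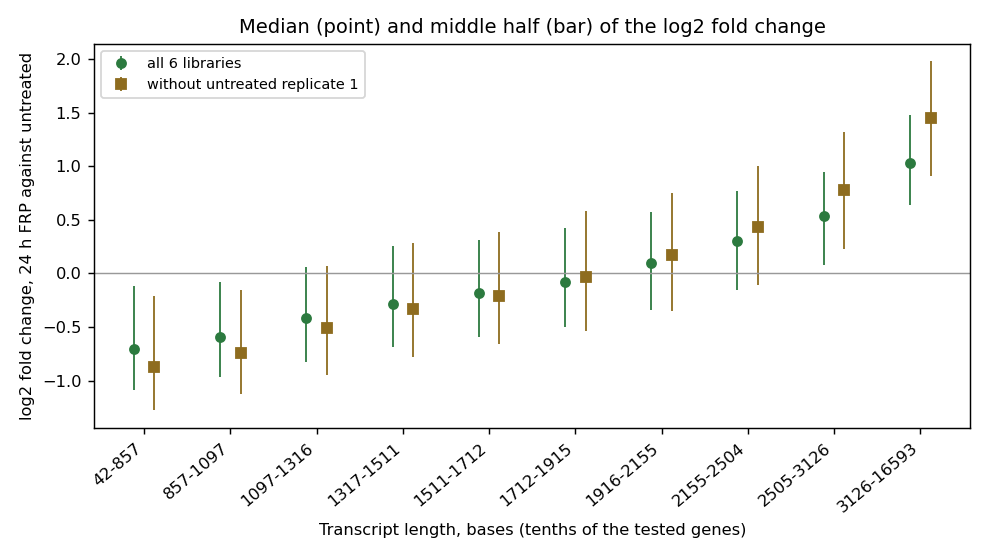
Median log2 fold change (24 h FRP against untreated, bars over the interquartile range) in 10 classes of the tested genes ordered by transcript length in bases, with all 6 libraries (circles) and without untreated replicate 1 (squares). The medians rose from -0.70 to 1.03 and from -0.87 to 1.45.

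**Figure D5:**
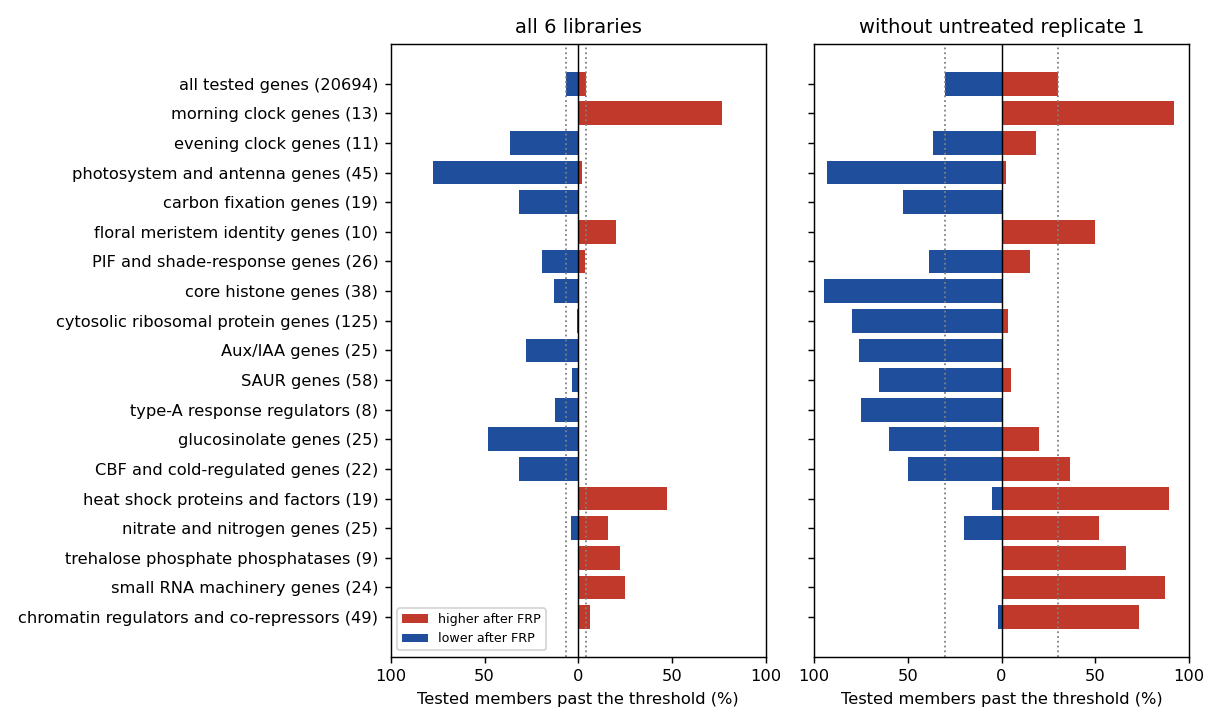
Share of tested members (%) past an adjusted p of 0.005 in 18 gene lists and in all tested genes, higher (right) and lower (left) after FRP, with all 6 libraries (left panel) and without untreated replicate 1 (right panel), and with dotted lines at the shares over all tested genes. Morning clock genes, photosystem genes and glucosinolate genes lie far past the dotted lines in both panels, whereas ribosomal protein and SAUR genes do so only in the right panel.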

How the data were processed

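RNA-seq counts of the 6 wild-type libraries were analysed. The deposited values are raw read counts per gene: per the study's methods, the authors used Trimmomatic to trim single-end reads, STAR (2.5.3a in the submitters' processing notes) to place them on TAIR10, with all best alignments kept as primary, and HTSeq (0.7.2) to count reads per Araport11 gene, strand ignored. Reads of overlapping or antisense genes therefore cannot be told apart, and 2.92% to 3.40% of reads were not assigned for that reason, so that a gene overlapped by another may be counted low. The study used 2 replicates per condition after a principal component analysis, and its labels mark untreated replicate 1 and FRP replicate 2 as unused there. All 3 are used here. A 0 count allows up to 3 counts.

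Summary lines that name no gene were dropped (per library, reads on no gene were 0.655% to 0.892%). Tested were the 20694 of 37336 genes that reached 10 counts in 2 or more libraries, with edgeR 4.0.16 (limma 3.58.1, R 4.3.3): TMM scaling, glmQLFit and glmQLFTest, no covariate, Benjamini-Hochberg adjustment over all tested genes, threshold 0.005. CPM are counts scaled to TMM-adjusted library totals, and are not divided by length. Principal components used 500 genes and a prior count of 2. The length trend was a spline of 5 degrees of freedom. DESeq2 1.42.0 served as an alternative. Plots were made with matplotlib 3.10.9 under Python 3.11.15. The test was tried on simulated counts. Of the gene IDs, 37051 matched the RefSeq annotation of TAIR10.1, the source of coordinates, lengths and sequences, which has the chromosome lengths of TAIR10. Of the list symbols, 32 matched no gene.

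The 50 gene lists, 6 marker lists and the named genes were chosen with earlier results of these data known, and members of the ribosomal and histone lists that are not such genes were removed from the annotation-based lists after values had been seen. Named by rule were the 10 genes of largest change each way (past the threshold with and without untreated replicate 1, mean count at least 50, no overlap), up to 3 genes each way per list, and a fixed set of flowering, clock, light and meristem genes. LNK2, PIL1, HFR1, MYB28, MYB29, CYP79B2, CYP83B1 and the genes of early stress responses were added after their values had been seen. A gene that the rule names is not reported here. Counting intervals are 95% exact intervals and cover counting error only. No gene list was tested as a set. The length trend without replicate 1 was added as an alternative after the data had been seen.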

Additional observations from a re-analysis of the deposited data

How the results depend on the processing

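At an adjusted p of at most 0.005 the counts of 884 higher and 1300 lower genes became 3704 and 3679 with DESeq2, 5264 and 6019 with all 18 libraries in the fit, 6309 and 6057 with the 4 libraries the study used, 3955 and 5883 with the length trend removed and without untreated replicate 1, and 4774 and 5467 at an adjusted p of at most 0.05. Leaving out each library in turn gave 2 to 6233 higher and 1 to 6254 lower genes. DESeq2 size factors, library totals, other filters on low counts, removal of the length trend alone and a 2-fold minimum kept both counts within 1.5 times. With the replicate number as a block, 0 and 0 genes passed (edgeR, smallest adjusted p 0.00719), while 11337 had an unadjusted p under 0.05, against 12130 without the block. Deviations from the group mean of same-numbered libraries had r = -0.185, -0.058 and 0.019, and those of differently numbered ones -0.276 to 0.258. With 3 libraries per group these values cannot decide whether the numbers pair the samples. Library totals in place of TMM moved the median log2 fold change of all genes by 0.108, and no gene named here changed direction under it.

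Some log2 fold changes changed sign. Of genes that passed with all 6 libraries, GLT1 went from 1.38 to -0.42 and -0.57 and BSL2, a phosphatase gene of brassinosteroid signalling, from 0.75 to -0.43 and -0.66 with the length trend removed, with all 6 libraries and without replicate 1. BRL1, of the brassinosteroid list, went from 1.40 to 0.17 and -0.007 under the same settings (adjusted p = 0.508 and 0.969 with the trend removed). The following had not passed with all 6. Without replicate 1, with the 4 libraries of the study, and with the length trend removed without replicate 1, PRR5 had 0.15, 0.16 and 0.19, and CBF1 had 2.16, 1.99 and 2.51. CBF1 had 0.87 with the replicate block. TOC1 had 0.11 in the former pair of settings. With the length trend removed, with and without replicate 1, GI had -0.30 and -0.21 and PHYA -0.14 and -0.19. Over the libraries left out in turn, TOC1 ranged from -0.48 to 0.11, PRR5 from -0.83 to 0.15 and CBF1 from -1.53 to 2.16. The cause was not tested. Depth limits AP1, CAL, LFY, TSF and CLV3, which had few counts in some libraries.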

Other observations

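The 6 genes below, of a kind that responds within minutes to touch, cold or wounding, were not called with all 6 libraries. Untreated replicate 1 had them at or above the level of the FRP libraries while untreated replicates 2 and 3 did not. They were chosen after their values had been seen, and no list of such genes was counted. CBF1, a transcription factor of the cold response, had 113, 4.75 and 4.44 CPM in untreated replicates 1, 2 and 3 and 15.3, 25.6 and 20.4 CPM after FRP. DDF1, a relative of CBF1, had 22.8, 0 and 0.0472 CPM against 10.6, 18.8 and 13.8 CPM. ZAT10, a zinc finger gene of abiotic stress, had 174, 5.94 and 5.9 CPM against 99.4, 199 and 148 CPM, and ZAT12 113, 4.71 and 7.03 CPM against 47.9, 82.1 and 64.6 CPM. XTH22, the touch gene TCH4, had 616, 29 and 24 CPM against 287, 494 and 385 CPM, and JAZ1, a jasmonate repressor that jasmonate itself induces, 240.1, 18 and 18.6 CPM against 141, 233 and 183 CPM. By the edgeR test these 6 genes had adjusted p of 0.416 to 0.645 with all 6 libraries and of 2.00e-05 to 0.000171 without replicate 1 (higher after FRP). As the genes were chosen with their values known, this contrast describes them and is not a test. Replicate 1 thus shared high levels of these 6 transcripts with the FRP libraries, and not the levels of CCA1, FKF1 or the photosystem genes, for which it was like the untreated libraries.

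Of 21 oxidative stress genes, 3 rose (14.3%) and 4 fell (19%), beside 4.27% and 6.28% of all tested genes. The counts without replicate 1 were 8 higher (38.1%) and 9 lower (42.9%), beside 30.2% and 30.3%. FSD1, an iron enzyme of the chloroplast and cytosol, rose from 1.09, 0.728 and 1.18 CPM to 11.7, 5.47 and 8.32 CPM (3.09 ± 0.35, adjusted p = 0.00198), while CSD2, a copper and zinc enzyme of the chloroplast, fell from 532, 576 and 601 CPM to 288, 252 and 269.9 CPM (-1.08 ± 0.12, adjusted p = 0.00196). FLS1, which makes flavonols, rose from 5.83, 4.79 and 5.57 CPM to 17.3, 11.8 and 14.5 CPM, and PAP1 and MYBL2, an activator and a repressor of anthocyanin synthesis, both fell, with log2 fold changes of -1.78 ± 0.26 and -1.84 ± 0.27 (adjusted p = 0.00388 and 0.0037). Of 25 flavonoid and anthocyanin genes, 1 rose (4%) and 2 fell (8%), shares near those of all tested genes (4.27% and 6.28%), and 5 were higher and 6 lower without replicate 1. The trichome gene TRY, an inhibitor of hair fate, fell from 1.33, 1.99 and 2.64 CPM to 0.367, 0.377 and 0.522 CPM, the only one of 7 trichome markers to pass with all 6 libraries (3 were lower without replicate 1).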
